A study of Rattus norvegicus with 241 samples.

Results

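The luminal epithelial cells of young ACI rats that received vehicle alone were followed over the 14 days after dosing. Of the 241 samples in the series, 9 were chosen by their labels as bulk RNA-seq libraries of the normal ACI experiment, luminal cell type and control treatment. They came from 9 rats, with 3 rats each on day 0, when dosing stopped, day 7 and day 14. ACI is an inbred strain that develops mammary tumors under estrogen. All 9 rats were virgin females given vehicle by gavage (carboxymethylcellulose, sodium lauryl sulfate and povidone, without the TGFβ receptor inhibitor TGFBRi), in 2 doses per day for 10 days from about 35 days of age, so that the groups were about 45, 52 and 59 days old. Luminal cells were sorted as CD24+CD29low cells after removal of CD31+ and CD45+ cells, from digested glands used fresh or after freezing. A comparison of days therefore addresses how the luminal epithelium matured through puberty without drug, and it cannot separate maturation from time since the last gavage. For 2 tests of a difference, the luminal cells of 9 rats given TGFBRi (LY2157299, galunisertib) at 75 mg/kg on the same schedule and the CD24+CD29high basal cells of all these rats were also used. The stage of the estrous cycle and the hour of collection are not given in the sources used here, and either could differ between collection days.

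The luminal epithelium lines the ducts and alveoli of the mammary gland and holds hormone-sensing cells, which carry the estrogen, progesterone and prolactin receptors, and alveolar or progenitor cells, which can make milk. During puberty, ovarian hormones and locally made EGF family ligands drive waves of division in the terminal end buds. After puberty, each estrous cycle brings a smaller round of division and partial milk gene expression, with prolactin acting through STAT5.

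The 9 libraries held 16109510 to 23206431 assigned reads and 12079 to 14549 genes with at least 1 read. Replicates 1 and 2 of day 7 held the most genes, 14303 and 14549, against 12096 to 13296 on day 0 and 12259 to 12344 on day 14. The top 100 genes took 22.6% of the reads in replicate 1 of day 7, against 29.9 to 36.2% in the other 8 libraries. Replicate 3 of day 7 held the fewest genes of the 9 libraries, 12079, so high gene counts did not mark all of day 7. Among TGFBRi libraries, replicates 1 and 2 of day 0 and day 7 held 14264 to 15143 genes. Replicate 3 held 12976 and 12322 on those days. The part of these library differences in the day 7 values was not tested. Replicate 3 of day 7 stood apart from the rest. Its values correlated with those of the other 8 libraries at r = 0.809 to 0.874 across 11253 genes, against 0.908 to 0.977 among those 8, and its normalized counts summed to 28900340 against 12200356 to 17673887. Its title and treatment label say vehicle while its description says a treated animal, and it was taken as vehicle. Libraries of 2 TGFBRi rats, replicate 1 of day 7 and replicate 3 of day 14, stood apart with it (r = 0.907 to 0.932 among the 3) and enter the spread that all luminal libraries share, so results are also given without these 3 rats, an alternative added after seeing the data. The keratin KRT8 was at 160375, 162292 and 141189 normalized counts on day 0 and 103724, 140319 and 114692 on day 14, and the surface marker EPCAM at 56538, 54829 and 56383 and 50518, 75657 and 61409, so luminal markers were abundant in both groups. The 12 basal markers summed to 1346 to 5948 in the 9 libraries, and the hemoglobin and other erythrocyte genes to between 0 and 9. Values below are normalized counts, which are read counts divided by a size factor per library, and fold changes are differences of log2(normalized count + 1). In bulk libraries, fewer cells of a type and less RNA per cell cannot be told apart.

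On day 14, 59 of 15181 genes tested differed from day 0, 28 higher (0.184% of genes tested) and 31 lower (0.204%). The genes that rose included AADAT, a kynurenine aminotransferase, at 1935 ± 306 against 57 ± 12.8 (SD, n = 3), the transporters SLC7A7 and ABCG2, and the mucin MUC1. Those that fell included ZBTB16, with the largest fall of the 31, and TSC22D3, which steroid hormones induce, the growth factor NRG2, the helix-loop-helix inhibitor ID4, and the immediate early genes EGR2, FOSB, FOS and EGR1. The clock genes DBP and NR1D1 also fell. The day 0 and day 14 values of all 59 genes lay apart, as they did for 23.5% of all genes tested. Genes were called with limma at an adjusted p of at most 0.05, and 1159 genes had an unadjusted p under 0.05. By edgeR, 48 of the 59 were also called, and 11 missed its threshold (SCD, FCMR, LPO, TNFRSF9, ELK3, BAG2, GRAMD3, ODC1, SLBP, AZIN1 and EGR1, adjusted p = 0.0519 to 0.309). With 1 rat left out, the number called was 12, 14 or 6 without replicate 1, 2 or 3 of day 0 and 6, 34 or 6 without replicate 1, 2 or 3 of day 14. AADAT, RAB7B, TSC22D3, FOSB and KLF2 were called in all 6 of those fits, and all 59 were also called without the 3 rats that stand apart, where 760 genes were called, 386 higher (2.58%) and 374 lower (2.5%). None of those 3 rats is a vehicle rat of day 0 or day 14. That fit therefore keeps every change between these days and alters only the spread that the libraries share. For day 14 against day 0, here and below, it is no check on the changes themselves.

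**Figure D1:**
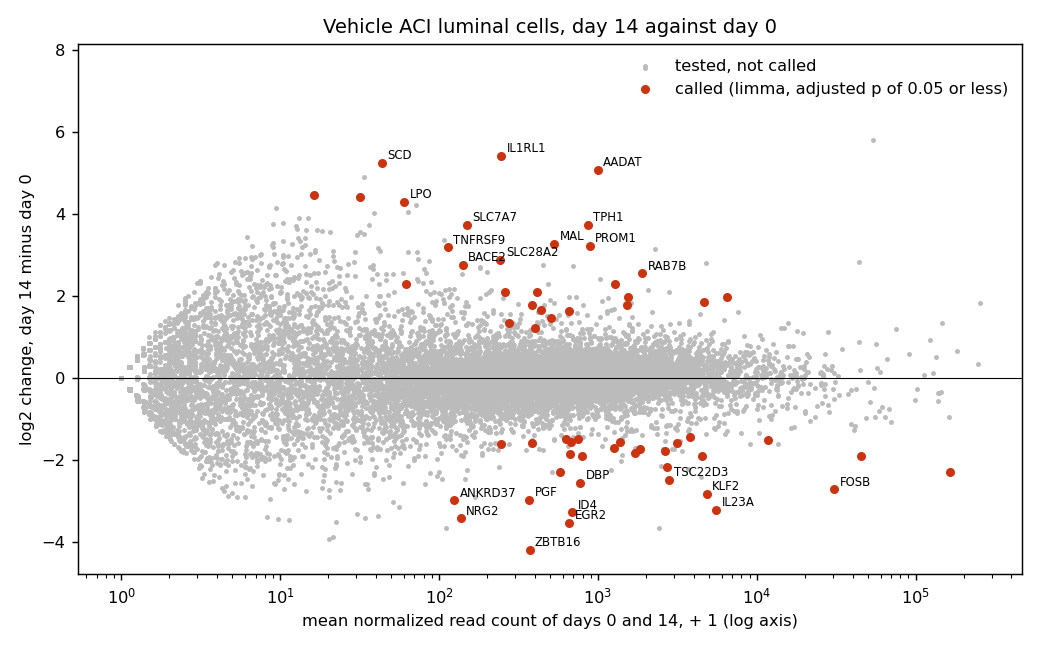
Change of every gene tested between day 0 and day 14 in vehicle luminal cells, with the mean normalized count of the 2 days plus 1 on a log horizontal axis and the log2 difference on the vertical axis. The 28 genes that rose and the 31 that fell are in red. The median change of all genes tested is 0, and some genes not called, in grey, lie as far from it as the red ones or further.

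Of the genes that rose, AADAT was at 45.4, 70.7 and 54.7 in the day 0 rats and at 1872, 2267 and 1665 in the day 14 rats, a change of 5.07 on the log2 scale (SE 0.50, adjusted p = 0.000314). On day 7 it was at 709.6, 315 and 1174, between the values of both other days in every rat. SLC7A7, a basic amino acid transporter, was at 38.4, 5.1 and 23.2 on day 0 and 207, 481 and 136 on day 14 and rose by 3.73 (SE 0.69, adjusted p = 0.0267). The nucleoside transporter SLC28A2 went from 65.8, 22.6 and 86.2 to 705, 206 and 369, a rise of 2.87 (SE 0.57, adjusted p = 0.0374). The highest day 0 value of each of these genes lay under its lowest day 14 value. SCD, the stearoyl-CoA desaturase, had no read in day 0 replicates 2 and 3 and a value of 6.27 in replicate 1, against 49, 152 and 50.2 on day 14 (log2 change 5.24, SE 0.98, adjusted p = 0.0274). TPH1, the rate-limiting enzyme of serotonin synthesis outside the brain, was at 109, 85.3 and 69.6 on day 0 and at 618, 3573 and 701 on day 14 and rose by 3.73 (SE 0.63, adjusted p = 0.0212). ABCG2, an efflux transporter that moves vitamins and drugs into milk, was at 157, 193 and 106.1 on day 0 and 952, 457 and 592 on day 14 (log2 change 2.10, adjusted p = 0.0486).

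Of the other genes that rose, IL1RL1, the receptor for interleukin 33, was at 26.6, 41.5 and 0 on day 0 and at 338, 658 and 407 on day 14 (log2 change 5.41, SE 0.94, adjusted p = 0.0212). LPO, the lactoperoxidase of milk and other secretions, was at 13.3, 10.9 and 0 and 139, 79.2 and 112 (log2 change 4.29, SE 0.85, adjusted p = 0.038). Since at least 1 day 0 library held no read of IL1RL1, LPO or SCD, the fold of these genes depends on the value of 1 added before taking logs. MAL, a protein of apical membrane trafficking, went from 125, 80.9 and 71.3 to 564, 1612 and 719 and rose by 3.26 (SE 0.59, adjusted p = 0.0245). PROM1, an apical membrane protein that marks hormone-sensing luminal cells in the mouse, went from 229, 205 and 103.6 to 1501, 1877 and 1397, a rise of 3.21 (SE 0.59, adjusted p = 0.0267). RAB7B, a GTPase of late endosomes, was at 588, 571 and 482 on day 0 and 2573, 4082 and 3089.6 on day 14 (log2 change 2.55, SE 0.28, adjusted p = 0.000543). The protease BACE2 was at 22.7, 51 and 35.6 and 238, 292 and 198 (log2 change 2.76, adjusted p = 0.0212), and the costimulatory receptor TNFRSF9 at 18.8, 13.1 and 38.1 and 183, 230.0 and 192 (log2 change 3.18, adjusted p = 0.0427). The remaining genes that rose included BTC, the EGF receptor ligand betacellulin, by 2.28, GJB2, the gap junction protein connexin 26, by 1.86, RCAN1, an inhibitor of calcineurin, by 1.97 and C4BPA, a regulator of complement, by 1.62. GRAMD3 had the smallest rise of the 28, 1.22 on the log2 scale.

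The genes that fell include known targets of steroid hormone receptors and growth factors. ZBTB16, a transcription factor induced by glucocorticoids and progestins, was at 907, 416 and 786 on day 0 and at 27.1, 30.5 and 53.2 on day 14 and fell by 4.20 on the log2 scale (SE 0.75, adjusted p = 0.0217). On day 7 its values were already low, at 28.8, 22.3 and 7.93. TSC22D3, which encodes the glucocorticoid-induced leucine zipper protein GILZ, was at 4437, 4551 and 5107 on day 0 and 719.6, 1260.4 and 639 on day 14 and fell by 2.49 (SE 0.28, adjusted p = 0.000543). For both genes every later rat lay below every day 0 rat. ID4, an inhibitor of helix-loop-helix transcription factors, was at 998, 1459 and 1246 on day 0 and 106.3, 245 and 73.4 on day 14 and fell by 3.28 (SE 0.48, adjusted p = 0.00719). The growth factors NRG2, a neuregulin that binds ERBB receptors, and PGF, of the VEGF family, fell by 3.42 (SE 0.49, adjusted p = 0.00684) and 2.97 (SE 0.52, adjusted p = 0.0214). NRG2 was at 277, 181 and 285 on day 0 and at 18.1, 34.3 and 16.5 on day 14, and PGF at 566, 617 and 740.3 and 47.5, 192 and 56.2, with no overlap for either gene. IL23A, the p19 subunit of interleukin 23, was at 9969.7, 10484 and 9455 and 1262, 1313 and 741 (log2 change -3.22, adjusted p = 0.0334). The ankyrin repeat gene ANKRD37 was at 204, 243 and 213 and 21.9, 28.9 and 30 (log2 change -2.99, adjusted p = 0.0331).

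Immediate early genes, which cells switch on within minutes of a mitogen or of stress, including that of tissue dissociation, were also among the genes that fell. FOS was at 271182, 226285 and 312094 on day 0 and at 38484, 100201 and 42039 on day 14, a fall of 2.29 (SE 0.39, adjusted p = 0.0212). It took 1.47 to 1.99% of the reads of a day 0 library and 0.253 to 0.567% of those of a day 14 library. FOSB was at 64667, 32798 and 63061 and 6189.7, 10745 and 7091 and fell by 2.72 (SE 0.34, adjusted p = 0.00239). EGR2 was at 1129.6, 1295 and 1161 and 83.6, 220.1 and 56.9 and fell by 3.54 (SE 0.51, adjusted p = 0.00704). In each of these genes replicate 2 was the highest of the day 14 rats, and it still lay below every day 0 rat. KLF2, a transcription factor that also responds to shear stress, was at 9259, 6437 and 9465 and 785, 2189 and 908 (log2 change -2.83, SE 0.37, adjusted p = 0.00256), and EGR1 fell by 1.91 and KLF4 by 2.17. Of the 20 stress and early response genes, 4 were called lower (FOS, FOSB, EGR1 and KLF4), 19 had a lower mean log2 value on day 14 and 12 did not overlap between the groups, with a median change of -0.96 against 0 over all genes. For comparison, 10.9% of all genes tested did not overlap and were lower. The heat shock genes HSPA1A and HSPA1B are near-identical copies whose reads may be split between them, so their separate values are uncertain. In a wider list of 27 early response genes, chosen after values had been seen, EGR2, KLF2, IER5L and TOB1 were called lower, against 0.204% of all genes tested, and the median change was -0.86. Because the sorted cells came from digested glands, used fresh or after freezing, with no record per rat in the sources used here, the part of handling in these values was not tested.

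**Figure D2:**
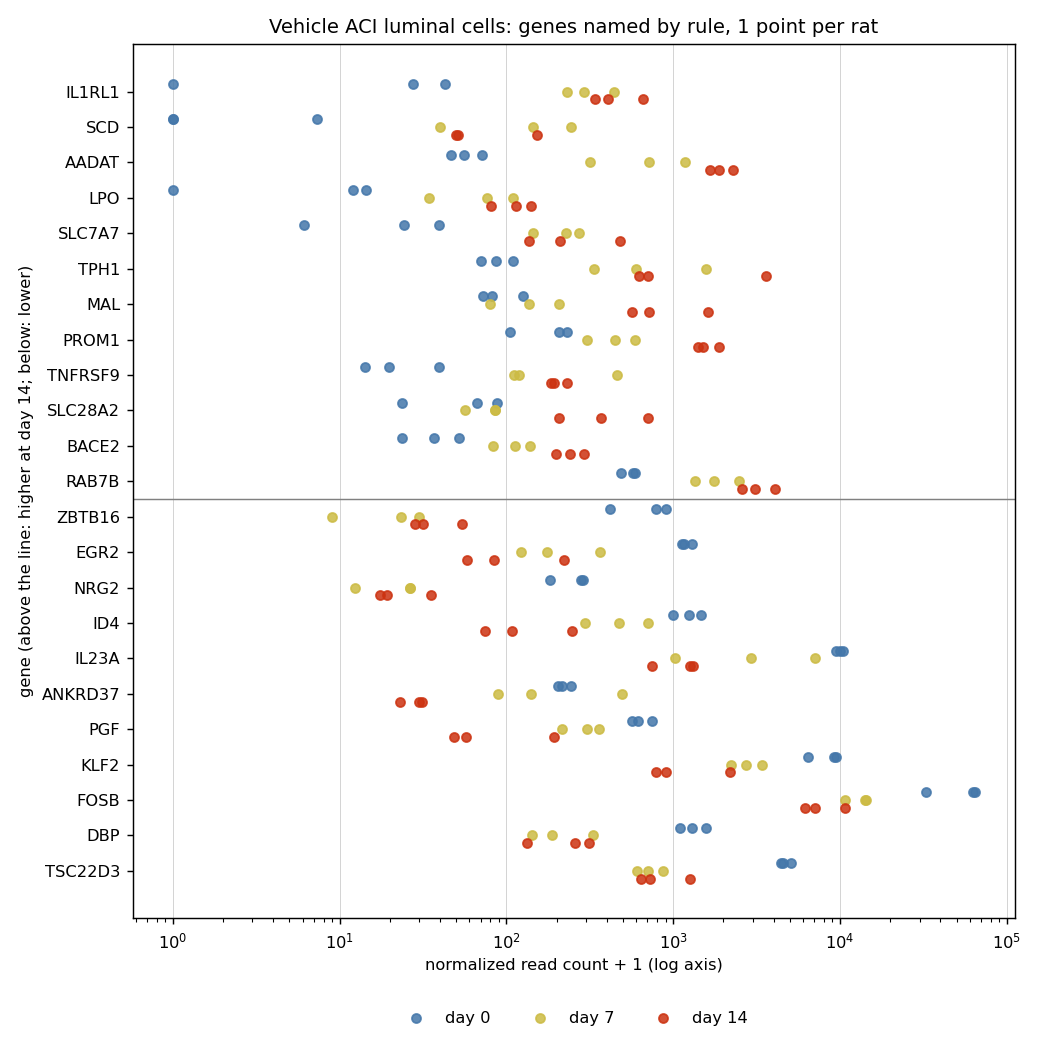
Normalized counts of the 12 genes that rose the most and 11 of those that fell the most between day 0 and day 14 under the rule for named genes, on a log axis (normalized count + 1), with 1 point per rat colored by day. In every gene the day 14 points lie apart from the day 0 points, and the day 7 points of ZBTB16 and TSC22D3 lie with those of day 14.

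On day 7 the genes named above did not all stand at the same point between the other days. Among those that were higher on day 14, PROM1 was at 591, 303 and 446 on day 7, and its log2 change was 1.34 to day 7 (adjusted p = 0.278) and 1.87 from day 7 to day 14 (adjusted p = 0.181). MAL was at 78.8, 135 and 206, with changes of 0.53 (adjusted p = 0.639) and 2.73 (adjusted p = 0.0644), so that its day 7 values overlapped those of day 0. SLC7A7 was at 144, 272 and 225 on day 7, with changes of 3.53 (adjusted p = 0.0273) and 0.20 (adjusted p = 0.883), and its day 7 values overlapped those of day 14. RAB7B lay between the other days in every rat, at 1344, 1752 and 2493, and differed from day 0 on day 7 (log2 change 1.72, adjusted p = 0.0103). Among the genes that were lower on day 14, FOSB was at 14362, 14099 and 10702 on day 7 (log2 change from day 0 -1.98, adjusted p = 0.0157) and ID4 at 295, 708 and 469.6 (log2 change from day 0 -1.40, adjusted p = 0.175). IL23A had the day 7 values 1020.1, 2933 and 7092, which reached from the day 14 level to close under that of day 0 (log2 change from day 0 -1.85, adjusted p = 0.17). All these changes share the day 0 or the day 7 rats, so they are given side by side only.

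Genes of the circadian clock also differed between days. The clock rests on CLOCK and its partner ARNTL (BMAL1), which drive the PER, CRY and NR1D genes and the outputs DBP and TEF, and these repress or relay the drive. DBP was at 1092, 1289 and 1563 on day 0, 141, 187 and 328 on day 7 and 310.5, 133 and 258 on day 14, and fell by 2.56 to day 14 (SE 0.49, adjusted p = 0.0311). NR1D1, the repressor REV-ERBα, fell by 1.72 (SE 0.33, adjusted p = 0.0311). NR1D1 overlaps THRA on the opposite strand, so reads in the overlap cannot be assigned to either of them, as counting did not use strand. The partner ARNTL stood the other way round, at 121, 114 and 184 on day 0 and 375, 563 and 521 on day 14 (log2 change 1.80, adjusted p = 0.125, not called), as did NPAS2, at 395, 239 and 258 and 746, 854 and 923 (log2 change 1.53, adjusted p = 0.582, not called). Of 15 clock genes tested in a list chosen after values had been seen, 2 were called lower (0.204% of all genes tested were), 10 lay lower without overlap (10.9% of all genes) and 2 (ARNTL and NPAS2) higher without overlap (12.7% of all genes). Without the 3 rats whose libraries stand apart, 10 were called lower and 2 higher, against 2.5% and 2.58% of all genes. On day 7, PER2, PER3, DBP and TEF of the 15 were called lower than on day 0, where 0.336% of all genes were. PER2 was at 4543, 3714 and 3434 on day 0, 604, 738 and 706 on day 7 and 1496, 880.4 and 1817 on day 14 (day 7 against day 0, -2.51, adjusted p = 0.00404). PER3 was at 842, 764 and 732, 106.8, 146 and 116 and 247, 231 and 341 (day 7 against day 0, -2.67, adjusted p = 0.00404). The hour of collection is unknown, so age and time of day cannot be told apart in these values. In a list of 16 glucocorticoid and progesterone response genes, likewise chosen after values had been seen, ZBTB16 and TSC22D3 were called lower on day 14, 7 did not overlap and were lower, against 10.9% of all genes, and the median change was -0.65.

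Milk genes were higher on day 14 in their mean log2 value in 16 of 16 members of a list of milk proteins and milk fat droplet genes, but 1 of them, MUC1, was called, where 0.184% of all genes tested were called higher. The median change was 1.05 on the log2 scale, and 11 of the 16 did not overlap between the groups, against 12.7% of all genes tested that did not overlap and were higher. MUC1, the apical mucin of the luminal surface and of the milk fat globule, was at 682, 606 and 591 on day 0, 1704, 1017 and 1782 on day 7 and 2836, 2137 and 2443 on day 14 and rose by 1.97 (SE 0.37, adjusted p = 0.0267). The caseins varied widely from rat to rat. CSN2, β-casein, was at 721, 799 and 1146 on day 0, 25996, 1965 and 120567 on day 7 and 237422, 6218 and 78510.1 on day 14 (log2 change to day 14 5.81, SE 1.41, adjusted p = 0.111, not called). Replicate 2 of day 7 and replicate 2 of day 14 were the lowest of their groups, and all 6 later rats lay above the 3 day 0 rats. CSN3, κ-casein, was at 130510.0, 84802 and 116743 on day 0 and at 494540.0, 294195 and 391279 on day 14 (log2 change 1.82, adjusted p = 0.653, not called). It took 0.55 to 0.829% of the reads on day 0 and 1.66 to 3.25% on day 14. The whey gene WAP was at 1057, 668 and 1188 on day 0 and 15422, 2304 and 8063 on day 14 (log2 change 2.80, adjusted p = 0.392), and GLYCAM1, a mucin-like milk protein, at 8.62, 16.8 and 9.12 and 8764, 501 and 2593 (log2 change 7.55, adjusted p = 0.197). LALBA, α-lactalbumin of lactose synthesis, was at 103903, 107989 and 116473 and 182228, 158070.0 and 132168 (log2 change 0.51, not called). PLIN2, which coats lipid droplets, was at 51779, 40608 and 44001 and 85103, 131287 and 99847 (log2 change 1.20, adjusted p = 0.163). The summed level of the 16 genes was 480644 to 571098 on day 0, 417491 to 2191150 on day 7 and 966983 to 1443440 on day 14, and the highest day 7 sum was that of replicate 3. Without the 3 rats that stand apart, 6 of the 16 were called higher on day 14, against 2.58% of all genes.

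**Figure D3:**
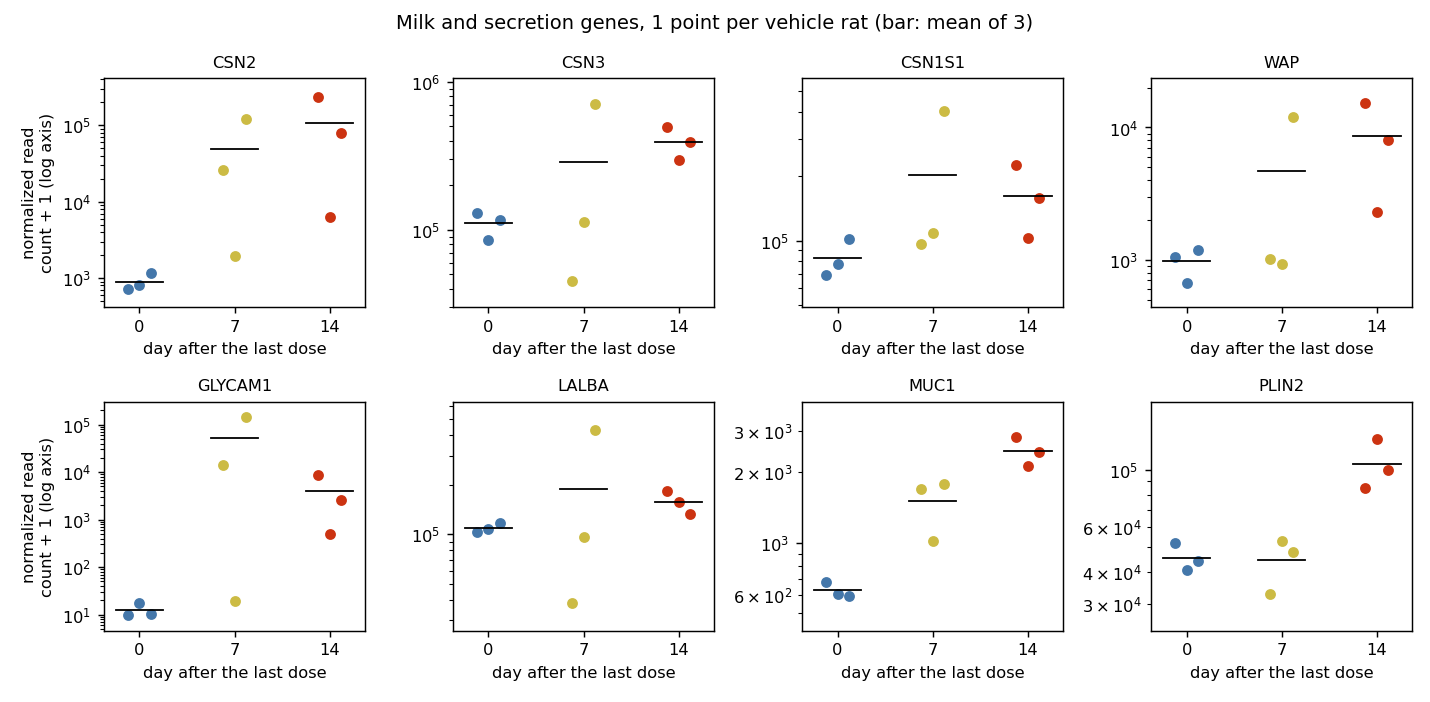
Normalized counts of 8 milk and secretion genes by day, on a log axis (normalized count + 1), with 1 point per vehicle rat and a bar at the mean of 3. Day 14 points lie above day 0 points in all 8 panels, while the day 7 rats spread over the widest range in CSN2 and GLYCAM1, with 1 GLYCAM1 point near the day 0 level.

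The promoters of 4 casein genes that hold a match to the binding site of STAT5 (GAS, TTCNNNGAA on either strand) are shown, because prolactin acts on caseins through STAT5. The match lies at a like distance from the start in each. Sequences are from RefSeq (GRCr8), since the series was aligned to rn6 and no genome of that build was used, and read 5′ to 3′ on the gene's strand with the GAS match in capitals.
CSN1S1 (chr14:20638916-20638975, minus strand): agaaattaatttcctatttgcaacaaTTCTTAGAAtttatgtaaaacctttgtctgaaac
CSN1S2A (chr14:20574540-20574599, minus strand): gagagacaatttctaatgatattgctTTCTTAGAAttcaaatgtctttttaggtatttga
CSN1S2B (chr14:20545685-20545744, minus strand): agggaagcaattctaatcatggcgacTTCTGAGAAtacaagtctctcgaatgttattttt
CSN2 (chr14:20601701-20601760, plus strand): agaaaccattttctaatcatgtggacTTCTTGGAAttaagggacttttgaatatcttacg
The matches began 100 bases before the annotated start of CSN1S1 and CSN1S2B and 97 before that of CSN2, and 2 bases further from the start in CSN1S2A than in CSN1S1. In windows from 250 bases before to 50 bases after the start, searched on both strands, 5 of the 16 milk gene promoters (31.2%) held a GAS match, the fifth being that of GLYCAM1, against 8.87% of all 33469 promoters in the table and 7.04% of those of genes tested. The other milk gene promoters, that of MUC1 among them, held none. None of the 25 promoters matched among the 28 genes that rose held one, and 4 of 23 (17.4%) did among the 31 that fell. A match describes these letters and does not show a bound site.

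Day 7 stood between the other days in time but not in level for the cell cycle. From day 0 to day 7, 53 of 15181 genes were called higher (0.349%) and 51 lower (0.336%), and from day 7 to day 14, 33 differed, 6 higher (0.0395%) and 27 lower (0.178%). Over the 3 days together, an F test called 148 genes (0.975%). The 2 comparisons share the day 7 rats, and each shares its other group with the comparison of day 14 with day 0. At an unadjusted p under 0.05 there were 2513 and 2226 genes, and the median change over all genes was 0.20 and -0.20. Among genes with a mean of at least 10, these medians were 0.04 and -0.03. The calls from day 0 to day 7 numbered 24, 24 or 17 without replicate 1, 2 or 3 of day 0 and 10, 282 or 29 without replicate 1, 2 or 3 of day 7. From day 7 to day 14 they numbered 0, 113 or 8 without replicate 1, 2 or 3 of day 7 and 8, 12 or 0 without replicate 1, 2 or 3 of day 14, and by edgeR 86 and 47 and by DESeq2 1211 and 873 in the 2 steps with all rats. Without replicate 3 of day 7, 26 of the genes called from day 0 to day 7 and 7 of the 33 after it were still called. Without the 3 rats that stand apart all of them were, among 506 higher (3.38%) and 559 lower (3.73%) from day 0 to day 7 and 434 higher (2.9%) and 379 lower (2.53%) from day 7 to day 14.

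Genes of DNA replication and mitosis were highest in the day 7 rats. Of 46 G2/M phase genes tested, all 46 had a higher mean log2 value on day 7 than on day 0, 36 without overlap and 3 called, with a median change of 1.97 against 0.20 over all genes. From day 7 to day 14, 44 had a lower mean, 39 without overlap and 4 called, with a median of -2.08. Of 36 S phase genes, the medians were 1.31 (22 higher without overlap, 2 called) and -1.87 (32 lower without overlap, 8 called). Over all genes tested, 15.2% were higher without overlap and 0.349% were called higher from day 0 to day 7, and 12.5% were lower without overlap and 0.178% were called lower from day 7 to day 14. RRM2, the small subunit of ribonucleotide reductase, was at 167, 256 and 143 on day 0, 1075, 534 and 774 on day 7 and 176, 109 and 105.6 on day 14. It rose by 2.06 (adjusted p = 0.0146) and then fell by 2.58 (SE 0.35, adjusted p = 0.0116). CDC20, an activator of the anaphase-promoting complex, was at 127, 159 and 189, 1321, 797 and 1444 and 354, 138 and 237 and rose by 2.87 (adjusted p = 0.00749) before it fell by 2.34 (adjusted p = 0.0397). CCNB1, the mitotic cyclin B1, was at 128, 158 and 143, 1152, 586 and 1377 and 349.7, 105.9 and 159 and rose by 2.77 (adjusted p = 0.0423). All 3 day 7 rats lay above all 6 others in these genes, replicate 3 included. CHAF1B, a histone chaperone of replicating chromatin, was at 82.3, 150.2 and 88.7, 657, 325 and 681 and 96.5, 63.2 and 38.9 and fell by 3.06 after day 7 (SE 0.45, adjusted p = 0.0137). SMC2, of condensin, and TRIP13, a checkpoint ATPase, fell by 2.80 (SE 0.44, adjusted p = 0.0226) and 2.80 (SE 0.49, adjusted p = 0.0288) after day 7. MCM6 and MCM7 of the replicative helicase, the thymidylate synthase gene TYMS, E2F1 and the cyclins CCNE1 and CCNE2 were also among the 27 that fell. Without the 3 rats that stand apart, 27 G2/M and 18 S phase genes were called higher from day 0 to day 7 and 20 and 26 lower from day 7 to day 14, against 3.38% and 2.53% of all genes. MKI67, the proliferation marker Ki-67, was at 199.8, 122 and 165, 1104, 510.2 and 468 and 326, 44.2 and 131 (day 7 against day 0, 2.01, adjusted p = 0.123, not called).

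Between day 0 and day 14, division genes differed little in mitosis and lay lower in S phase. The median change of the 46 G2/M genes was -0.05, with none called, and that of the 36 S phase genes -0.67, with 33 lower in mean log2 value, 11 lower without overlap, against 10.9% of all genes tested, and 1 called, SLBP, which binds histone mRNA (log2 change -1.59, adjusted p = 0.0451). Without the 3 rats that stand apart, 6 S phase and 2 G2/M genes were called lower, against 2.5% of all genes. In a list of 11 polyamine genes chosen after values had been seen, 5 had a higher and 6 a lower mean log2 value, the median change was -0.02 and 2 were called lower, against 0.204% of all genes tested. Of these, ODC1, which makes putrescine, fell by 1.44 (adjusted p = 0.0375) and AZIN1, which protects ODC1 from degradation, by 1.78 (adjusted p = 0.0427). Among 20 splicing factors, a list chosen in the same way, SRSF7, TRA2A and CCNL1 were called lower and 16 lay lower without overlap, against 0.204% and 10.9% of all genes tested.

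**Figure D4:**
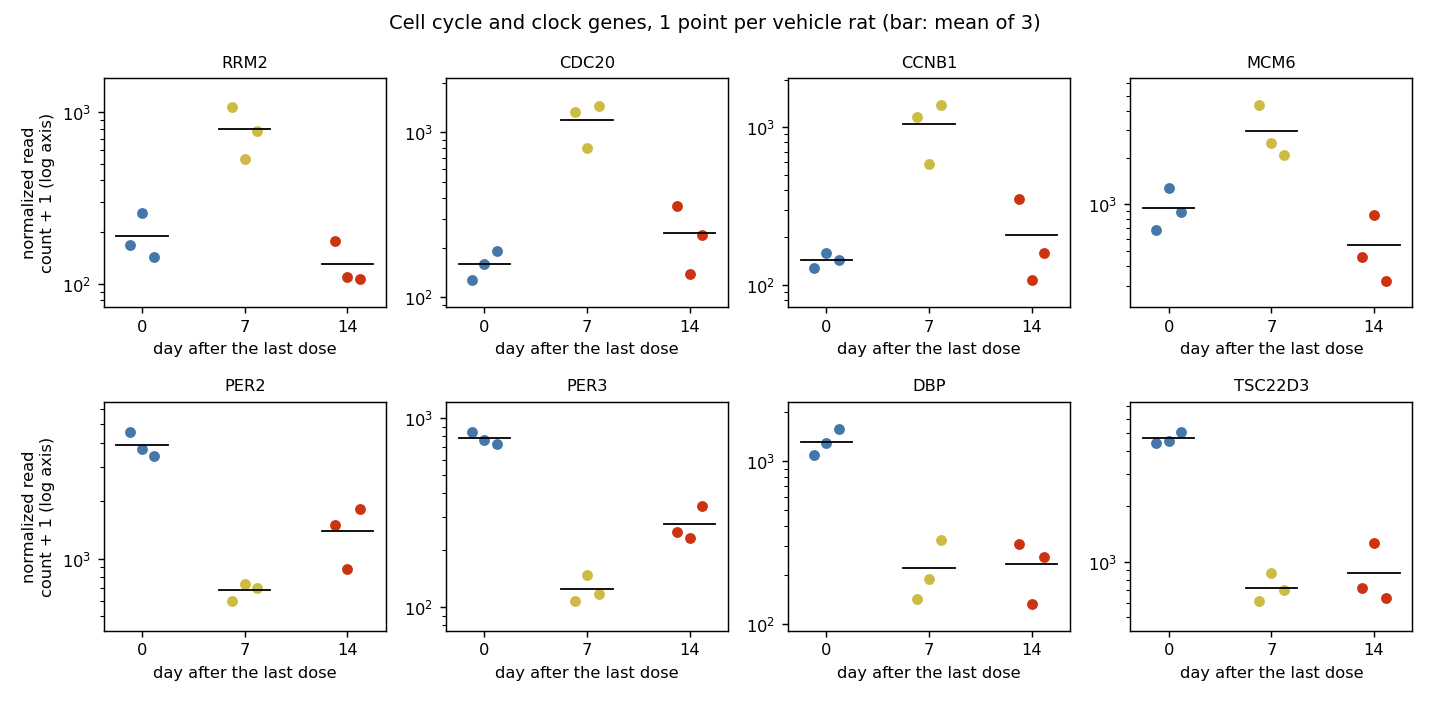
Normalized counts of cell cycle and clock or steroid response genes by day, on a log axis (normalized count + 1), with 1 point per vehicle rat and a bar at the mean of 3. In RRM2 and CDC20 the 3 day 7 points lie above all others, and in PER2, PER3 and TSC22D3 all 6 later points lie below the day 0 points.

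The promoters of genes that fell after day 7 are shown with their E2F match, since E2F factors drive genes at the entry into S phase. The motif was TTTCGCGC or TTTGGCGC on either strand, with the match in capitals, and 6 of the 22 promoters matched among the 27 genes (27.3%) held it.
KIF18A (chr3:116218971-116219030, plus strand): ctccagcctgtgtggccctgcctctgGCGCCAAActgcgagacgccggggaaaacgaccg
MCM6 (chr13:42404458-42404517, minus strand): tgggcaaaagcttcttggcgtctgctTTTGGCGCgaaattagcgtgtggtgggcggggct
MCM7 (chr12:22163197-22163256, minus strand): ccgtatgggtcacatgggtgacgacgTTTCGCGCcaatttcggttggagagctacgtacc
TCF19 (chr20:3223325-3223384, plus strand): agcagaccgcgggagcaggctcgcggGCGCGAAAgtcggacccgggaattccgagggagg
TYMS (chr9:120776087-120776146, minus strand): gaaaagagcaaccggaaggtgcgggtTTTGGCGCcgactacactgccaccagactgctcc
USP1 (chr5:118702999-118703058, plus strand): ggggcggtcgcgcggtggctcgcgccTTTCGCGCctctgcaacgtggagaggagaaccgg
In MCM6 a second match overlaps the one shown. Of all promoters 0.792% held the motif, and of the 11053 promoters of genes tested 1.29%. Of the 27 promoters matched in the S phase list, 9 (33.3%) held it. In the G2/M list, 30 of 42 promoters (71.4%) held the CHR motif (TTTGAA or TTCGAA on either strand), against 14.3% of those of genes tested, and 31 (73.8%) the CCAAT motif, against 37.4%.
The whole window of CDC20, in which the CHR and both CCAAT matches lie in capitals, is given as an example of a promoter with both motifs.
CDC20 (chr5:137255750-137256049, minus strand): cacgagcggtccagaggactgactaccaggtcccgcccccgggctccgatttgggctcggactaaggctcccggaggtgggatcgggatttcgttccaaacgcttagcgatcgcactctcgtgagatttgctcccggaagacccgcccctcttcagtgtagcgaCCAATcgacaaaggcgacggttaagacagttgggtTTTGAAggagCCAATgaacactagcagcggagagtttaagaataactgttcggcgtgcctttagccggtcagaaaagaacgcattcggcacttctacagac

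Beyond the cell cycle, the genes with large changes between day 0 and day 7 included calcium-binding, secreted, lipid and adhesion genes. CALB2, the calcium-binding protein calretinin, was at 0, 2.92 and 0 on day 0, 229, 65.9 and 399.8 on day 7 and 15.1, 20.6 and 9.73 on day 14 (day 7 against day 0, 6.86, SE 0.90, adjusted p = 0.00404). SERPINB2, the plasminogen activator inhibitor PAI-2, was at 2.35, 0.729 and 0, 100.7, 94.8 and 189 and 39.9, 3.05 and 10.5 (day 7 against day 0, 6.09, SE 1.04, adjusted p = 0.0146), and the protease inhibitor SPINK8 at 1.57, 0 and 1.66, 249.9, 13.2 and 1334 and 65.6, 102.8 and 25.5 (day 7 against day 0, 6.47, SE 1.34, adjusted p = 0.0365). These genes were near 0 on day 0, so their folds depend on the value added before taking logs. SCD was at 242, 38.7 and 143 on day 7, a rise of 5.85 from day 0 (adjusted p = 0.0133), and LOC259244 rose by 5.52 (adjusted p = 0.0146). ABCC8, the sulfonylurea receptor, fell by 4.96 from day 0 to day 7 (SE 0.92, adjusted p = 0.0247). It was at 1262, 1074 and 672 on day 0, 20.4, 115 and 11.1 on day 7 and 850, 298 and 1136 on day 14. Its day 14 values overlapped those of day 0. ZBTB16 and NRG2 were again among the genes that fell, with log2 changes of -5.19 (adjusted p = 0.00564) and -3.57 (adjusted p = 0.00404). TNS1, tensin 1 of focal adhesions, was at 946, 496 and 560.4, 27.3, 76.7 and 15.9 and 294, 365 and 266, so that the day 7 rats lay below both other days: it fell by 4.27 (SE 0.55, adjusted p = 0.00404) and then rose by 3.20 (SE 0.55, adjusted p = 0.0288). After day 7, TF, the iron carrier transferrin, also rose, from 16583, 42936 and 33858 to 210002, 260036 and 163399 (log2 change 2.84, SE 0.40, adjusted p = 0.0137), having been at 71710.4, 84078 and 91337 on day 0. LRG1, a secreted glycoprotein that modulates TGFβ signals in endothelium, rose by 3.08 (adjusted p = 0.0288), the phosphodiesterase PDE8A by 2.46 (adjusted p = 0.0487) and the membrane progestin receptor PAQR7 by 1.84 (adjusted p = 0.0288). CLDN9, a tight junction claudin, fell by 3.81 (SE 0.70, adjusted p = 0.0343).

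Genes of pathways known to govern puberty in this tissue were compared between day 0 and day 14, where 0.184% of all genes tested were called higher and 0.204% lower. Among 11 hormone-sensing genes tested, 7 had a lower mean log2 value on day 14, 2 of them without overlap (10.9% of all genes tested), and the median change was -0.58. PROM1 was the 1 member higher without overlap (12.7% of all genes) and the 1 gene called (0.184% of all genes were called higher). The receptor genes had no call: ESR1 was at 421, 332 and 244 on day 0 and 278, 96.7 and 377 on day 14 (log2 change -0.58), PGR at 731, 760.2 and 438 and 440.1, 1019 and 569 (log2 change 0.02), and PRLR at 2045, 1397 and 1604 and 1199, 727 and 1419.8 (log2 change -0.63). Their adjusted p-values were 1, 1 and 0.759. Of 11 estrogen and progesterone response genes, ID4 was called lower. AREG, the EGF family ligand through which estrogen drives ductal growth, was at 1423, 2379 and 1752 and 1336, 6069 and 2409 (log2 change 0.57, adjusted p = 1, not called). Of 11 EGF family genes in a list that does not hold NRG2, which was called lower as given above, BTC was called higher, where 0.184% of all genes were. BTC was at 17.2, 27 and 14.9 on day 0 and 70.8, 156 and 80.9 on day 14 (adjusted p = 0.0427). None of 12 luminal progenitor genes and none of 13 luminal identity genes was called, with medians of 0.07 and 0.23.

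TGFβ, which restrains ductal growth, is the pathway that the drug of the series inhibits. None of its 11 ligand and receptor genes was called between day 0 and day 14 (median change 0.20). Of these 11, 4 lay higher and 1 lower without overlap. Without the 3 rats that stand apart, 1 of them was called higher and 1 lower. None of its 14 target and feedback genes was called (median -0.72), although 8 of the 14 lay lower without overlap and 2 higher. Of the 14, 6 (SMAD6, LTBP2, ID1, ID2, ID3 and BAMBI) were called lower without the 3 rats that stand apart. Of all genes tested, 10.9% lay lower and 12.7% higher without overlap. Without those rats, 2.5% were called lower and 2.58% higher. ID1, an inhibitor of helix-loop-helix factors, was at 2171, 2132 and 3409.6 on day 0 and 615, 1467 and 502 on day 14 (log2 change -1.71, adjusted p = 0.53). SMAD6, an inhibitory SMAD, was at 164, 165 and 133 and 37.7, 44.2 and 32.9 (log2 change -1.99, adjusted p = 0.303). ID1, ID2, ID3 and SMAD6 are also known targets of BMP signals, so the list is not specific for TGFβ.

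**Figure D5:**
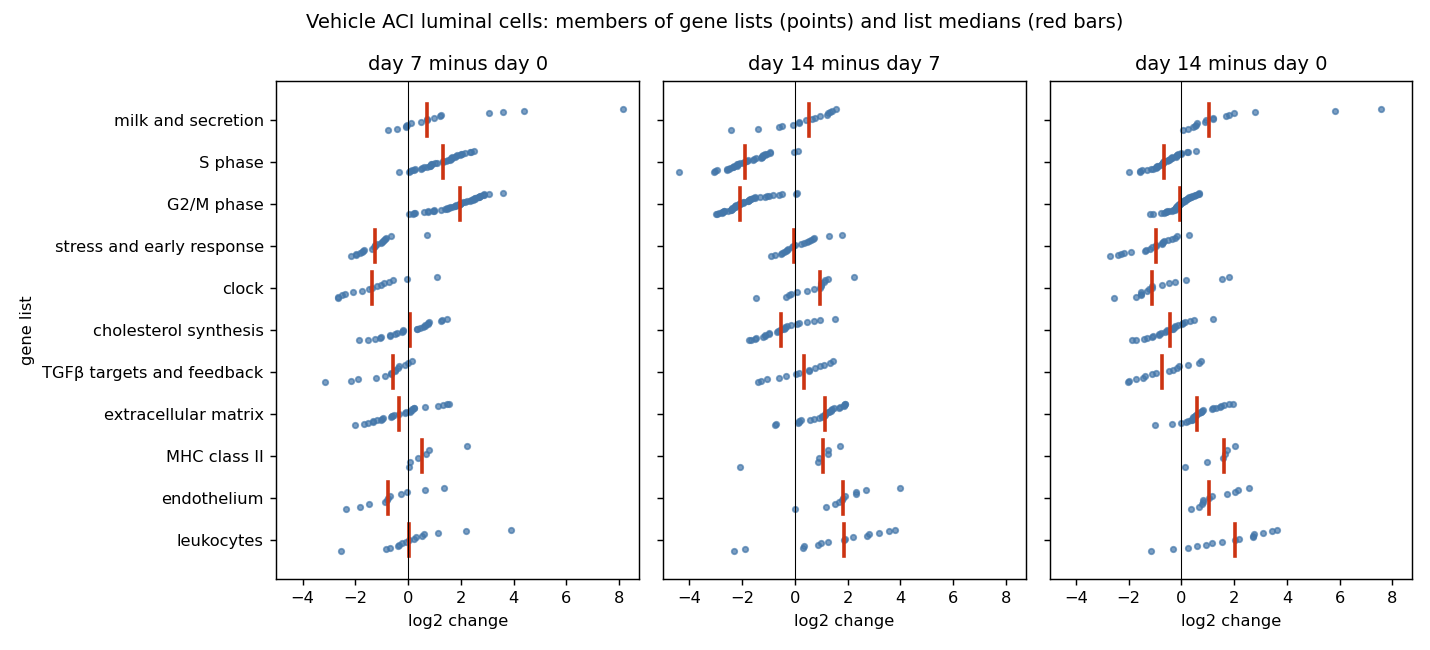
Log2 changes of the members of gene lists in 3 comparisons of days, with 1 point per gene tested and a red bar at the median of each list. The S and G2/M phase lists lie above 0 from day 0 to day 7 (medians 1.31 and 1.97) and below 0 from day 7 to day 14 (medians -1.87 and -2.08), and the milk list lies above 0 from day 0 to day 14 (median 1.05).

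Lipid, matrix and defense genes were also examined. SCD was the 1 called gene of 16 in fatty acid synthesis (median 0.30), where 0.184% of all genes tested were called higher. Of those 16, 6 lay higher and 1 lower without overlap, against 12.7% and 10.9% of all genes tested. Without the 3 rats that stand apart, 3 of the 16 were called higher, against 2.58% of all genes. None of 24 cholesterol synthesis genes was called from day 0 to day 14 (median -0.45, 18 with a lower mean log2 value). Of those 24, 9 lay lower and 2 higher without overlap, against 10.9% and 12.7% of all genes tested. Without the 3 rats that stand apart, 5 were called lower and 1 higher, against 2.5% and 2.58% of all genes. None of 27 extracellular matrix genes was called (median 0.59, 9 higher without overlap against 12.7% of all genes tested), none of 18 unfolded protein response genes (median 0.05) and none of 17 genes of glycolysis and hypoxia (median 0.03). Of 23 interferon response genes, IRF1 was called lower, by 1.91 (adjusted p = 0.0212), against 0.204% of all genes tested called lower. Innate defense genes (14 tested, median -0.04), cyclins and their inhibitors (16, median -0.45), hormone receptors (14, median -0.20) and Wnt and Notch genes (16, median -0.12) had no call. Of the 16 cyclins and inhibitors, 6 lay lower without overlap, against 10.9% of all genes tested. Without the 3 rats that stand apart, 3 of them were called lower, against 2.5% of all genes.

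Markers of other cell types were found in the libraries at sums that differed between lists and days. The 15 leukocyte markers summed to 233 to 477 on day 0, 217 to 839 on day 7 and 567 to 863 on day 14, with a median change of 2.03 from day 0 to day 14 and no call, and PTPRC, which encodes CD45, was at 25.1, 0.729 and 0 on day 0 and 14.3, 41.1 and 41.2 on day 14. The lymphocyte markers CD3E, CD4, CD8A and MS4A1 were at 0 in day 0 replicates 2 and 3, and CD3E was at 13.6, 39.6 and 18.7 on day 14. The 11 endothelial markers summed to 285 to 604 on day 0, 173 to 411 on day 7 and 803 to 1736 on day 14 (median change 1.04, no call), and PECAM1, which encodes CD31, was at 79.1, 16.8 and 55.5 and 149, 270.4 and 137. In both lists, every day 14 sum lay above every day 0 sum. IL1RL1 and TNFRSF9, which leukocytes also express, rose in the same rats. On day 7, IL1RL1 was already at 229, 443 and 289 and TNFRSF9 at 110, 118 and 462. The leukocyte markers of those day 7 rats summed to 217, 372 and 839 in the same order. The 6 class II antigen genes had a median change of 1.62, with none called. They summed to 1906, 950 and 1333 on day 0 and 1824, 4764 and 3236 on day 14, so replicate 1 of day 14 lay within the day 0 range. The part of leukocytes and endothelial cells in the values of these genes was not tested. Fibroblast markers summed to 11652 to 23573 on day 0 and 16466 to 36834 on day 14, with a median change of 0.63, and were above the sums of the leukocyte and endothelial lists in every rat of these 2 days, with COL3A1 at 5584, 12103 and 10352 on day 0 and 12596, 21904 and 8647 on day 14. Basal markers had a median change of 0.29 and adipocyte markers of 0.28, and no fibroblast, basal or adipocyte marker was called. Neutrophil and mast cell markers summed to 60 to 95 on these 2 days, and skeletal muscle markers to 61 to 269.

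The 59 changes were set against those in TGFBRi-treated luminal cells and in basal cells. The test of the difference between the vehicle and the TGFBRi change from day 0 to day 14 called 1 of 15181 genes (0.00659%), with 1274 at an unadjusted p under 0.05. It was SSPO, which encodes the secreted protein SCO-spondin, at 0.783, 0 and 0 on day 0 and 52.7, 11.4 and 27.7 on day 14 in vehicle rats, against 19.9, 36.8 and 20.4 and 1.54, 0.844 and 0 in TGFBRi rats. The vehicle change was 4.46 and the TGFBRi change -3.94, a difference of 8.40 (adjusted p = 0.0176). The median difference over all genes tested was 0.28, and 0.007 among genes with a mean of at least 10. In luminal cells on day 0, TGFBRi replicates 1 and 2 held 10192039 and 8922897 reads and 15060 and 15143 genes. Replicate 3 held 18568520 reads and 12976 genes. The vehicle replicates held 18895823 to 21160386 reads and 12096 to 13296 genes. The part of these library differences in the SSPO call was not tested. SSPO has under 50 reads a library on average and was named after its values were seen, and edgeR called no gene in this test at an adjusted p of 0.05, with 1192 at an unadjusted p under 0.05. With a pseudocount of 10 SSPO was not among the 6 genes called. Without replicate 1, 2 or 3 of vehicle day 0 the count was 4, 2 or 0, and without those of vehicle day 14 it was 0, 1 or 0. LPO had a difference of 7.22 (adjusted p = 0.0762), UPK3A, a uroplakin, of -8.17 (adjusted p = 0.0762) and TK1, thymidine kinase, of -4.29 (adjusted p = 0.2), none of them called. In the same order, the vehicle changes were 4.29, -2.31 and -0.38 and the TGFBRi changes -2.94, 5.86 and 3.91. The vehicle changes of UPK3A and TK1 were not called. On day 0, TK1 was at 353, 705 and 551 in vehicle rats and 69.6, 13.4 and 22.9 in TGFBRi rats. UPK3A was at 663, 751 and 1072 and at 17.1, 13.4 and 0. For the other 58 genes the test of this difference was not passed, which does not show that they changed alike under both treatments.

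In the comparison with basal cells, sorted from the same rats, the luminal and the basal change differed in 13 of 15824 genes (0.0822%), 12 with the higher change in luminal cells, with 2297 at an unadjusted p under 0.05. SLC7A7, RCAN1, IL23A and SSPO were called both here and among the 59. For the other genes of the 59 this test was not passed, which does not show that they changed alike in both cell types. In vehicle basal cells ZBTB16 was at 372, 174 and 521 on day 0 and 1.15, 4.95 and 7.90 on day 14. TSC22D3 was at 2110, 2469 and 3055 and 1239, 806 and 751 there. MAL, which rose in luminal cells, was at 258, 717 and 565 and 246, 116 and 263 in basal cells. The luminal change of SLC7A7 exceeded the basal change by 4.46 (SE 0.65, adjusted p = 0.0175) and that of RCAN1 by 2.40 (SE 0.34, adjusted p = 0.0175), while IL23A had a difference of -3.06 (SE 0.44, adjusted p = 0.0175). SLC34A2, the phosphate transporter of alveolar membranes, differed by 2.90 (adjusted p = 0.0292), the ectonucleotide phosphodiesterase family gene ENPP4 by 2.65 (adjusted p = 0.0418) and PEX11A, of peroxisome division, by 1.81 (adjusted p = 0.0418). The vehicle change was -0.53 in luminal and -3.18 in basal cells for ENPP4 and -0.51 and -2.31 for PEX11A, so neither rose in luminal cells, and in SLC7A7, SLC34A2 and RCAN1 the basal changes were -0.73, -0.77 and -0.44. In vehicle luminal cells SLC34A2 was at 823, 914 and 582 on day 0 and 3008, 4107 and 2995 on day 14 (log2 change 2.13, adjusted p = 0.177). BBC3 and PIM3 had differences of -1.61 and -1.49 and were not called. Without the rat as a block 5 genes were called. Single rats decided these calls: without replicate 1, 2 or 3 of vehicle day 0 the count was 8, 37 or 0, without those of day 14 it was 0, 18 or 19, and with the 9 vehicle rats alone limma called none, with 1559 genes at an unadjusted p under 0.05. Without the 3 rats that stand apart 1 gene was called. The normalized counts of the basal library of vehicle day 14 replicate 1 summed to 25230700. Those of the other vehicle basal libraries of day 0 and day 14 summed to 14303400 to 16642200. The part of this library in the calls was not tested.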

How the data were processed

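Per the labels, RNA of sorted cells was made into libraries from low input with a kit that does not mark strand, and sequenced as single-end reads. The submitters' processing notes name STAR 2.5.1b, HTSeq, DESeq2 1.30.1 and the rn6 build. The authors counted reads per gene without using strand and deposited counts divided by a size factor per library, so the unit here is a normalized signal per gene. 100% of the 483768 values above 0 in 36 libraries were whole multiples of the library's step (tolerance 0.001), which gave back the reads and the depth of each library (8922897 to 23206431 reads in luminal libraries).

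limma 3.58.1 (trend and robust) was fitted to log2(value + 1) of all 18 luminal libraries of young ACI rats, in 6 groups of 3 rats (vehicle or TGFBRi, day 0, 7 or 14), for the 15181 genes whose values summed to 10 or more, with Benjamini-Hochberg adjustment over all genes. Luminal and basal changes were compared within the 18 rats, since both libraries came from 1 animal. Their deviations from the group means correlated at 0.0119 to 0.184 over 11312 genes in the 6 vehicle rats of day 0 and day 14. On the recovered reads, edgeR 4.0.16 called 51 genes and DESeq2 1.42.0 called 347 between day 0 and day 14. Other alternatives were TMM scaling, pseudocounts of 0.5 and 10, a mean of at least 10, no filter, vehicle libraries alone, each rat left out and, added after seeing the data, the 3 rats that stand apart left out and 2 days alone.

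Named genes were, per direction, the 12 with the largest change (5 in the other comparisons) among those called with at least 50 reads on average and no overlap between groups, which a test of a difference did not need, filled up to 8 (3) by the smallest p where fewer were called. Members of fixed lists could also be named. A few genes that the rule names are not reported here. The samples and lists were chosen with earlier results of these data known, and 5 lists (clock, steroid response, wider early response, splicing, polyamines) after values were seen. The counts of those 5 lists beside the shares of all genes are therefore description and not a test. Replicates are separate rats. No single-cell, leukocyte, adult or other strain data were used. Promoters came from a RefSeq table (GRCr8) and were matched by symbol.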

Additional observations from a re-analysis of the deposited data

Results flagged for a closer look

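A closer look is asked of 7 genes, each because its change from day 0 to day 14 in vehicle luminal cells differed from its change in another group by a test of the difference itself. SSPO had a change 8.40 higher on the log2 scale in vehicle than in TGFBRi luminal cells, from low counts, and was not called by edgeR or with a pseudocount of 10. Against basal cells of the same rats, the luminal change was higher by 4.46 in SLC7A7, 2.90 in SLC34A2, 2.65 in ENPP4, 2.40 in RCAN1 and 1.81 in PEX11A, and IL23A had a difference of -3.06. In ENPP4 and PEX11A the luminal changes were -0.53 and -0.51 (adjusted p = 1 for both), and the basal changes -3.18 and -2.31. With 3 rats in a group, no group was large enough to test for an outlying sample.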

How the results depend on the processing

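Counts of genes called moved by over 1.5 times under some settings, and the cause was not tested. Between day 0 and day 14 (59), 16 genes were called with the vehicle libraries alone, 347 by DESeq2 and, in fits added after seeing the data, 760 without the 3 rats that stand apart and 852 with the 2 days alone. From day 0 to day 7 (53 higher and 51 lower), the counts were 178 with vehicle libraries alone, 1211 by DESeq2 (800 higher and 411 lower), 210 with a mean of at least 10 and 1065 without the 3 rats, and by edgeR 52 were higher and 34 lower. From day 7 to day 14 (33), they were 91, 873 (259 higher and 614 lower), 82 and 813 in the same order, and 58 with a pseudocount of 10. For any day (148), they were 234 by edgeR, 1586 by DESeq2, 257 with a mean of at least 10 and 1712 without the 3 rats. For the difference from TGFBRi cells (1), edgeR called 0 (1192 at an unadjusted p under 0.05), DESeq2 53 and a pseudocount of 10 gave 6, of which SSPO was not one. For the difference from basal cells (13), the fit without the rat as a paired block called 5, vehicle rats alone 0 (1559 at an unadjusted p under 0.05), a pseudocount of 10 gave 52, a mean of at least 10 gave 34 and leaving out the 3 rats 1. With 1 vehicle rat left out in turn, the counts ran from 6 to 34, 10 to 282, 0 to 113, 18 to 284, 0 to 4 and 0 to 37 in the order given here. For single named genes, 645 values under these alternatives kept their direction and their side of the threshold, 226 kept the direction but missed the threshold, 15 passed it anew and none reversed. The smallest change called between day 0 and day 14 was 1.22 on the log2 scale, which is not a limit of detection.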
